A study of Homo sapiens with 6 samples.

Results

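Nuclear-encoded respiratory chain genes were followed in T24 cells, a line from a human bladder carcinoma, after silencing of TRIM28. The members were the rows of the count table whose gene name begins with NDUFA, NDUFB, NDUFC, NDUFS, NDUFV, UQCR, ATP5 or COX4 to COX8, or is SDHA, SDHB, SDHC or SDHD, without names that end in P or P and digits or that hold a hyphen. This gave 96 of 78932 rows. They were 37 subunit genes of complex I, 8 complex I assembly factors (the NDUFAF genes), 4 genes of complex II, 9 of complex III, 19 of complex IV and 19 of complex V. NDUFA4 and NDUFA4L2 were placed in complex IV, where NDUFA4 protein resides despite its name.

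The series held poly(A) RNA from 3 cultures transfected with the control siRNA siNC and 3 transfected with siRNA against TRIM28 (siTRIM28), labelled as biological replicates 1 to 3 of each and all of batch 1. The T24 cells carried no stated modification and were grown in medium with serum. The siRNA acts in every transfected cell, the time of collection was not stated, and it was not named which of the siRNAs against TRIM28, siTRIM28-1 or siTRIM28-2, these cultures received. TRIM28 is a transcriptional co-repressor and E3 ligase. The libraries held 11712623 to 14018052 counts.

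The respiratory chain sits in the inner mitochondrial membrane. Complexes I and II pass electrons from NADH and succinate to ubiquinone, complex III passes them on to cytochrome c and complex IV to oxygen, and complex V uses the resulting proton gradient to make ATP. All but complex II also hold subunits encoded by mitochondrial DNA, so that both genomes supply each of these complexes.

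TRIM28 itself fell from 103 ± 4.08 to 8.84 ± 0.656 CPM (counts per 1e+06 counts, scaled by TMM), where values are the mean ± SD of 3 libraries. Its log2 fold change was -3.54 (adjusted p = 1.03e-10). Adjusted p-values here come from the quasi-likelihood test of edgeR, corrected by the Benjamini-Hochberg method across 18474 genes. VIM and KRT8 were abundant in all libraries, and the mesenchymal marker VIM rose from 1099 to 1384 CPM (adjusted p = 2.56e-05). Neither the other mesenchymal marker, CDH2 (57.7 to 61.9 CPM, adjusted p = 0.150), nor the epithelial KRT18 (85.8 to 90.9 CPM, adjusted p = 0.211) passed. Of 13 urothelial and epithelial markers, summing to 191 to 197 CPM in siNC and 210 to 218 CPM in siTRIM28, UPK1B and KRT20 were at 0 counts and UPK2, UPK3A, KRT5, KRT19, GATA3, EPCAM and CDH1 stayed below 1 CPM, while UPK1A (0.871 to 3.40 CPM), KRT7 (2.83 to 4.18 CPM) and KRT8 (103 to 114 CPM) rose (adjusted p = 5.49e-04, 0.0126 and 0.0356). The markers of other cell types (PTPRC, PECAM1, COL1A1, MYH7, CKM and ALB) summed to 1.37 to 1.72 CPM in siNC and 3.42 to 4.80 CPM in siTRIM28. Among them only COL1A1 had enough counts to be tested, and it rose (0.929 to 3.27 CPM, adjusted p = 2.22e-04). The part of all these markers in the results was not tested. siTRIM28 replicate 1 stood apart from the other libraries of its group. Of 88 members with a mean of at least 50 counts, 23 (26.1%) lay at least 0.3 on the log2 scale from the other siTRIM28 libraries in replicate 1, 16 above and 7 below, compared with 14.3% of all such genes. For siNC replicate 3, the library of its group that stood farthest off, this was so for 2 members. Without both libraries 24 members were lower (26.7%, against 22.8% of all genes in that fit) and 8 higher (8.89%, against 21.8%). NDUFA3, NDUFA2, UQCR10, SDHB, NDUFA4 and NDUFAF5, called with all libraries, then had log2 fold changes of 0.40, 0.14, 0.17, 0.10, 0.26 and -0.19 and did not pass (adjusted p from 0.0616 to 0.167).

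Of the 96 members, 90 passed the count minimum of 10 counts in at least 3 libraries. After TRIM28 silencing 19 of the 90 were lower (21.1%) and 9 were higher (10.0%) at an adjusted p under 0.05. Over all genes tested 20.5% were lower and 21.3% higher, so the share that fell was near the background with all libraries in the fit. The share that rose depended on scaling. With upper-quartile scaling 22 members were higher (24.4%, against 23.9% of all genes) and 17 lower, and with total counts alone 14 were higher and 18 lower. The number that rose was 5 without siNC replicate 1, 4 without siNC replicate 3 and, among siTRIM28 libraries, 16 with replicate 2 left out and 15 with replicate 3 left out. The median log2 fold change of the members was 0.01, beside 0.02 for all genes, with 47 members above 0 and 43 below. The CPM values of the groups did not overlap for 39 members (43.3%), compared with 52.0% of all genes.

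The larger changes were all falls. NDUFA8, ATP5F1E, NDUFAF8, NDUFS7 and NDUFA9 were lower by at least 0.58 on the log2 scale, that is 5 of 90 members beside 7.51% of all genes. With all libraries no member rose by 0.58 or more in edgeR, also at an unadjusted p under 0.05 (0 members), in DESeq2 (0) and in limma-voom (0), while 9.50% of all genes did in edgeR. With 1 library left out a member passed this mark in 3 of 6 cases, NDUFA3 without siNC replicate 1 (0.70) or siTRIM28 replicate 3 (0.59) and NDUFA12 without siTRIM28 replicate 2 (0.60). The 5 large falls also shifted, since without siTRIM28 replicate 1 NDUFA9 was no longer among them and NDUFS5 (-0.61) and NDUFB6 (-0.74) were. The spread of the members by complex is drawn in the plot of fold changes.

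**Figure D1:**
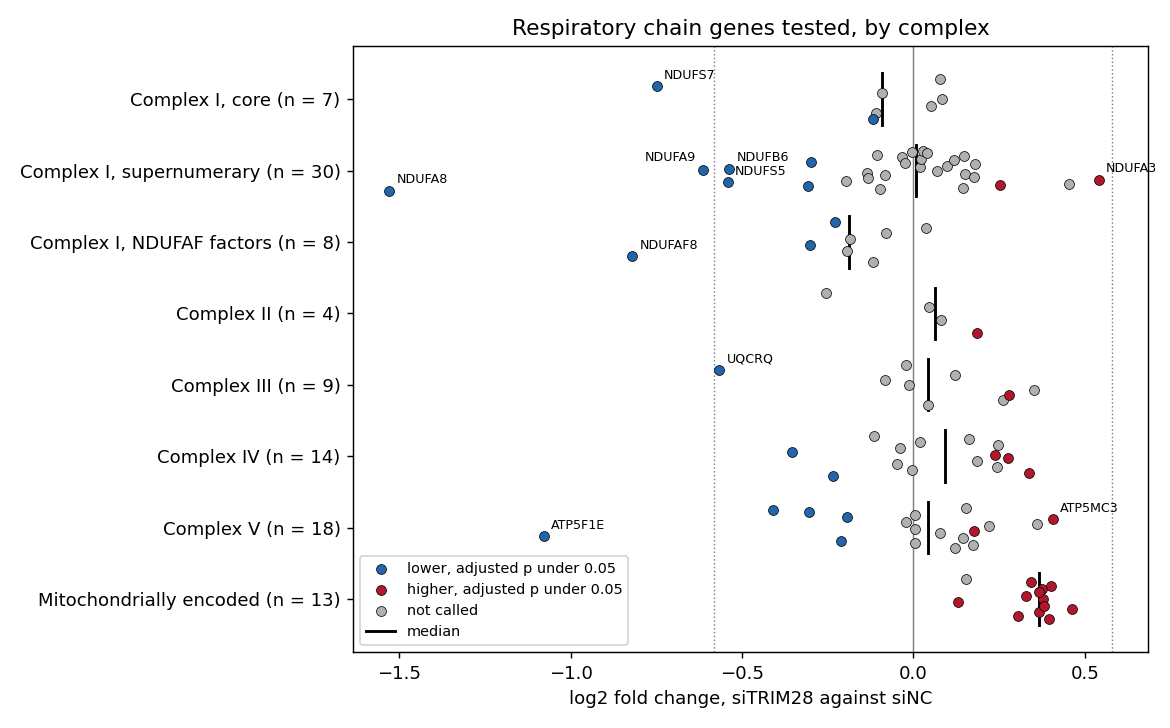
Each point is 1 gene tested, placed by its log2 fold change (siTRIM28 against siNC, horizontal axis) in the row of its complex, with the 13 mitochondrially encoded subunits in the last row. Blue points were lower and red points higher at an adjusted p under 0.05, grey points did not pass, black bars are medians and dotted lines lie at 0.58 on either side of 0. The 5 points left of the dotted line are NDUFA8, ATP5F1E, NDUFAF8, NDUFS7 and NDUFA9, and no point lies right of the other one.

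NDUFA8, a cysteine-rich supernumerary subunit of complex I on the side of the intermembrane space, changed most (ENSG00000119421, GRCh38 chromosome 9, 122144058 to 122159779, minus strand). It was at 25.8, 23.0 and 24.3 CPM in siNC replicates 1 to 3 and at 8.12, 7.66 and 9.60 CPM in siTRIM28 replicates 1 to 3. The log2 fold change was -1.53 (standard error 0.0905, adjusted p = 1.72e-07). All siTRIM28 libraries thus lay far below all siNC libraries, and siTRIM28 replicate 1 lay between the other 2.

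ATP5F1E encodes the epsilon subunit in the central stalk of ATP synthase (ENSG00000124172, chromosome 20, 59025475 to 59032345, minus strand). Its level was 192, 208 and 187 CPM in the siNC libraries and 107, 84.1 and 87.1 CPM in the siTRIM28 libraries, a log2 fold change of -1.08 with a standard error of 0.0799 (adjusted p = 9.87e-07). The groups were well separated, with siTRIM28 replicate 1 the highest of its group. Without that library the log2 fold change was -1.19.

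NDUFAF8 encodes an assembly factor that works with NDUFAF5 (ENSG00000224877, chromosome 17, 81239305 to 81241081, plus strand). It was at 18.2, 19.7 and 22.7 CPM in siNC and at 9.54, 12.9 and 12.04 CPM in siTRIM28, a log2 fold change of -0.82 with a standard error of 0.114 (adjusted p = 1.43e-04). The groups did not overlap, and siTRIM28 replicate 1 was the lowest library. Without it the log2 fold change was -0.69.

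NDUFS7 carries the iron-sulfur cluster N2 that hands electrons to ubiquinone, which makes it the catalytic core subunit with the largest change (ENSG00000115286, chromosome 19, 1383527 to 1395584, plus strand). The siNC libraries lay close together at 17.4, 17.4 and 17.6 CPM, and the siTRIM28 libraries at 10.04, 11.2 and 10.02 CPM, and the log2 fold change was -0.75 with a standard error of 0.0767 (adjusted p = 1.32e-05). The gap between the groups was many times the spread within them. Rows on the opposite strand overlap NDUFS7 and held 11.97% and 19.9% of its siNC counts, and whether counting used the strand is not given in the sources used here.

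NDUFA9, a supernumerary subunit beside the ubiquinone site, was at 44.3, 42.6 and 46.6 CPM in siNC and 26.1, 30.2 and 31.1 CPM in siTRIM28 (ENSG00000139180, chromosome 12, 4649095 to 4694317, plus strand). The log2 fold change was -0.61 (standard error 0.0754, adjusted p = 5.37e-05), with no overlap of the groups. With upper-quartile scaling it was -0.58, and without siTRIM28 replicate 1, the lowest library, it was -0.54. Rows of the same strand that overlap NDUFA9 held 94.2% and 88.3% of its counts and had log2 fold changes of -0.65 and -0.66, so the transcript behind these counts cannot be told apart. An exact two-sided permutation test gave p = 0.1 for each of these 5 genes, the smallest p that 3 libraries against 3 allow.

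**Figure D2:**
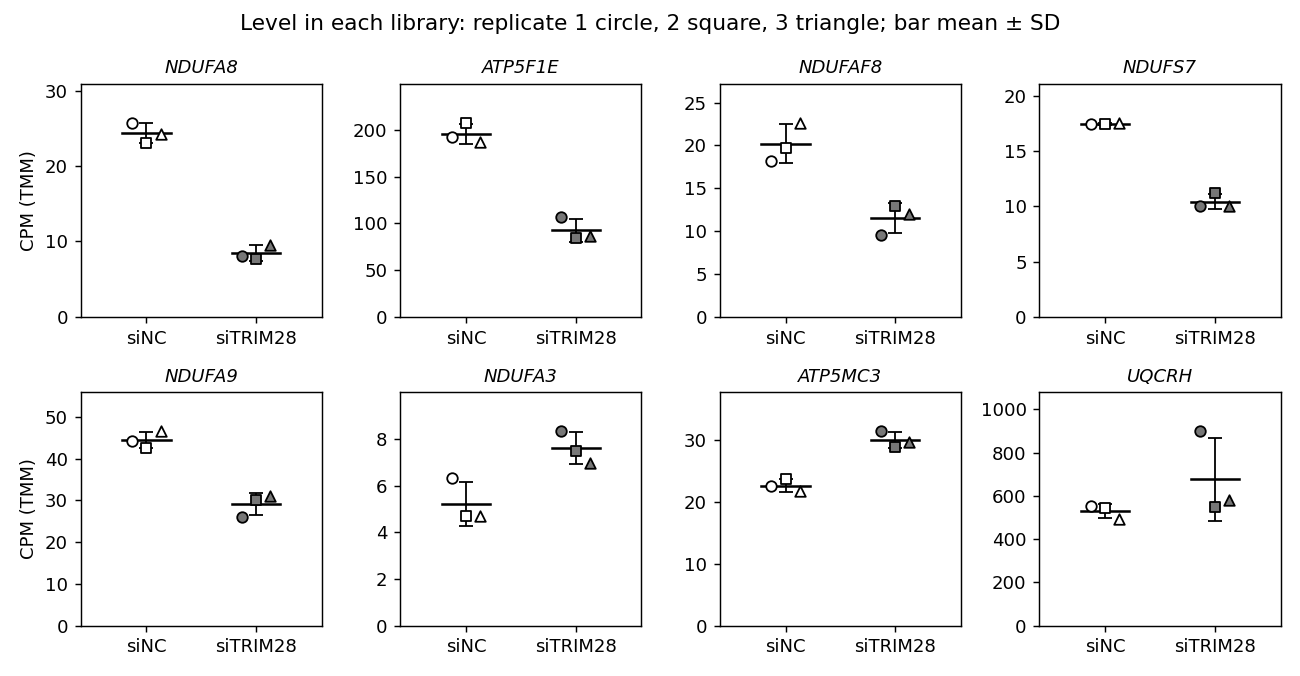
CPM (vertical axis, from 0) in each library for the 5 members that fell by at least 0.58 on the log2 scale, the members with the largest rises that passed the test (NDUFA3 and ATP5MC3) and UQCRH, which did not pass. Circles, squares and triangles are replicates 1, 2 and 3, open for siNC and filled for siTRIM28, with the mean and SD of each group. For UQCRH siTRIM28 replicate 1 lies at 899 CPM, far above the other 5 libraries.

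An siRNA can lower transcripts other than its target through its seed, bases 2 to 8 of the guide strand, when the 3′ UTR holds the complement. The heptamer that pairs with the seed of siTRIM28-2, TCCTGTC, occurred in the 3′ UTR of 4 of the 5 members that fell by at least 0.58, namely NDUFA8, ATP5F1E, NDUFS7 and NDUFA9. Without siTRIM28 replicate 1 it occurred in 3 of the 6 members that fell so far, as NDUFS5 and NDUFB6 lack it. The sites in GENCODE v29 transcripts (GRCh38) are shown so that the matches can be read, with the heptamer in capitals and 10 bases on either side:
NDUFA8, chr9:122144069-122144095, minus strand: ctataccattTCCTGTCcattaaaatt
ATP5F1E, chr20:59028724-59028750, minus strand: aaaaaaaaaaTCCTGTCttgttcataa
NDUFS7, chr19:1395512-1395538, plus strand: cctgtcgccgTCCTGTCcccagcctgc
NDUFA9, first site, chr12:4688460-4688486, plus strand: ggactgaagaTCCTGTCtcagaaaaaa
NDUFA9, second site, chr12:4688507-4688533, plus strand: ctaggttttgTCCTGTCccaggcgtgt

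The site lies in the 3′ UTR of the 1 annotated coding transcript of NDUFA8, of 2 of 3 for ATP5F1E, of 4 of 7 for NDUFS7 and of 1 of 2 for NDUFA9. Which of these transcripts T24 cells make was not tested. Across the members the heptamer was not common. It occurred in 9 of 90 tested members (10.0%), fewer than the 18.0% of 12119 tested genes with a 3′ UTR. None of the 14 members that fell by less than 0.58 held it, whereas COX7B, with 3 copies, was higher in siTRIM28. Over all genes it was found in 42.8% of those lower by at least 0.58, in 21.9% of those lower by less, and in 12.1% of those higher. The heptamer of siTRIM28-1, ATGTGCA, occurred in 7 members (7.78%, against 15.3% of all genes). It was in none of the 5 large falls and in 3 of the 19 members that fell, COX7A2L, NDUFAF5 and NDUFV3, while 16.4% of all lower genes held it. The longest annotated 3′ UTR of each gene was searched, so these shares depend on its length, which was not compared between the sets of genes. The part of seed pairing in the falls was not tested.

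Complex I had 8 of 37 subunit genes lower (21.6%) and 2 higher (5.41%), beside 20.5% and 21.3% of all genes. Among the 7 core subunits encoded in the nucleus, which carry the flavin and the iron-sulfur clusters, NDUFS7 and NDUFV1 fell. NDUFV1, which binds NADH, was at 171, 166 and 173 CPM in siNC and 154, 162 and 153 CPM in siTRIM28, a log2 fold change of -0.12 (adjusted p = 0.0431). This is a small step, and the call was lost under 10 of 17 alternatives, among them upper-quartile scaling, total counts alone, DESeq2, the leaving out of any siNC library or of siTRIM28 replicate 3, and a fit with the replicate number as a block (log2 fold changes -0.14 to -0.08). NDUFS3, NDUFS8, NDUFS1 and NDUFV2 did not pass, with log2 fold changes of -0.11, -0.09, 0.05 and 0.08 (adjusted p from 0.240 to 0.494). The summed level of the core subunits was 596 ± 2.58 CPM in siNC and 590 ± 4.64 CPM in siTRIM28.

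Of the 30 supernumerary subunits of complex I, 6 fell and 2 rose. NDUFS5, which had the highest level per length of mRNA in the complex, was at 538, 544 and 497 CPM in siNC and 394, 340 and 351 CPM in siTRIM28. Its log2 fold change was -0.54 (standard error 0.0571, adjusted p = 1.66e-05) and its groups were far apart. NDUFA3, a small membrane subunit, was at 6.32, 4.68 and 4.69 CPM in siNC and 8.33, 7.49 and 6.99 CPM in siTRIM28, a log2 fold change of 0.54 with a standard error of 0.151 (adjusted p = 0.0130). It is among the genes with few counts, and the call was lost without siNC replicate 2. NDUFA2 rose by 0.25 on the log2 scale (adjusted p = 0.0248), a call that was lost without siNC replicate 1 or 3 and in DESeq2. Both lie across from a gene on the opposite strand with more counts, TFPT for NDUFA3 and IK for NDUFA2, each at a log2 fold change of 0.01.

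Of the 8 complex I assembly factors 3 fell, NDUFAF8, NDUFAF2 and NDUFAF5, beside 20.5% of all genes, and none rose in edgeR (0 at an unadjusted p under 0.05, 0 in DESeq2 and 0 in limma-voom). NDUFAF2, an assembly factor related to the subunit NDUFA12, was at 113, 116 and 111 CPM in siNC and 103, 85.9 and 86.8 CPM in siTRIM28, a log2 fold change of -0.30 (adjusted p = 0.00329). The adjusted p was 0.0678 with close pairs of libraries summed (siNC replicates 1 and 2, and siTRIM28 replicates 2 and 3). NDUFAF5, a modifying enzyme that acts on NDUFS7, went from 27.5 ± 2.02 to 23.5 ± 0.578 CPM, and the log2 fold change was -0.23 (adjusted p = 0.0231, lost without siNC replicate 2 or 3 and in DESeq2). The median of the 8 was -0.19.

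Complex II, which oxidizes succinate, changed little. SDHB, its iron-sulfur subunit, was at 61.5, 60.5 and 55.9 CPM in siNC and 72.0, 62.8 and 67.6 CPM in siTRIM28, a log2 fold change of 0.19 (adjusted p = 0.0365). Without siTRIM28 replicate 1 the adjusted p was 0.0703, and the call was also lost without any of the siNC libraries, without siTRIM28 replicate 3 and in DESeq2. SDHC, a membrane anchor, had a log2 fold change of -0.26 (adjusted p = 0.0541), which passed without siTRIM28 replicate 1 (log2 fold change -0.34, adjusted p = 0.0108). SDHA, the flavoprotein, and SDHD, the other anchor, had log2 fold changes of 0.05 and 0.08 and overlapping groups. The SDHA value hangs on how reads of its pseudogenes were placed. Rows named as SDHA pseudogenes held 33.0% of the joint counts in siNC and 40.5% in siTRIM28, and with these rows added to SDHA the log2 fold change was 0.21 (adjusted p = 0.00467).

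In complex III UQCRQ fell and UQCR10 rose, both small subunits without a redox centre. UQCRQ was at 123, 121 and 122 CPM in siNC and 69.6, 89.0 and 88.8 CPM in siTRIM28, a log2 fold change of -0.57 with a standard error of 0.0806 (adjusted p = 1.65e-04). Its siNC libraries were nearly equal and siTRIM28 replicate 1 was the lowest library, without which the log2 fold change was -0.45. UQCR10 rose from 26.4 ± 2.13 to 32.0 ± 2.60 CPM, and the log2 fold change was 0.28 (adjusted p = 0.0155, lost without siNC replicate 1 or 3), and a row on the opposite strand held 92.1% of its counts. UQCRFS1, the Rieske iron-sulfur protein, had a log2 fold change of -0.02 (adjusted p = 0.870). Its sign turned with upper-quartile scaling and when siTRIM28 replicate 1 was left out.

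UQCRH, the hinge protein and the member of complex III with the highest level per length, was at 552, 544 and 494 CPM in siNC and 899, 547 and 583 CPM in siTRIM28, so that siTRIM28 replicate 1 was far above all others, replicate 2 lay inside the range of siNC and replicate 3 a little above it. The log2 fold change was 0.35 (adjusted p = 0.0688). Its near-identical copy UQCRHL, whose reads counting may not separate from those of UQCRH, was at 0.26 (adjusted p = 0.0586). UQCRB had more counts than UQCRH in every library, but its mRNA length was taken as 5575 bases, against 604 for UQCRH. Their order per length hangs on these lengths.

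Complex IV had 14 of 19 members above the count minimum, 3 of them higher (21.4%) and 2 lower (14.3%), beside 21.3% and 20.5% of all genes. The risers were COX7B and COX6A1, small subunits, and NDUFA4. COX6A1 was at 52.6, 50.8 and 47.1 CPM in siNC and 68.5, 56.8 and 56.7 CPM in siTRIM28, a log2 fold change of 0.28 (adjusted p = 0.0156). COX7B had a log2 fold change of 0.24 (adjusted p = 0.0142) and NDUFA4 one of 0.34 (adjusted p = 0.0190). All 3 were highest in siTRIM28 replicate 1, without which the log2 fold changes were 0.18 for COX6A1, 0.15 for COX7B and 0.23 for NDUFA4, the last with an adjusted p of 0.0618. Without siNC replicate 3 the adjusted p was 0.0626 for COX6A1 and 0.0594 for COX7B, and without siNC replicate 1 or 2, or in DESeq2, NDUFA4 did not pass. A row of the same strand that overlaps COX6A1 held 98.9% as many counts and had a log2 fold change of 0.20.

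The members of complex IV that fell were COX8A and COX7A2L. COX8A, a small membrane subunit, was at 19.0, 19.0 and 18.7 CPM in siNC and 13.7, 14.7 and 16.0 CPM in siTRIM28, a log2 fold change of -0.36 with a standard error of 0.0745 (adjusted p = 0.00244). A row of the same strand that overlaps COX8A had more counts and a log2 fold change of -0.92. COX7A2L, which links complexes III and IV in supercomplexes, had a log2 fold change of -0.23 (adjusted p = 0.0302) and overlapping groups, and did not pass with upper-quartile scaling, with close pairs of libraries summed, or without siNC replicate 1 or 2 or siTRIM28 replicate 2 or 3. Of the subunits around the catalytic core, COX4I1, COX5A and COX5B had log2 fold changes of -0.04, 0.16 and 0.24 and did not pass (adjusted p from 0.0963 to 0.509). COX5B was at 168 CPM in siTRIM28 replicate 1 and 110 CPM in both other siTRIM28 libraries, inside the siNC range of 98.1 to 115 CPM. COX6C, the member with the highest level per length of all (1028 counts per kilobase of mRNA, in CPM, in siNC), had a log2 fold change of -0.05. Without siNC replicate 3 and siTRIM28 replicate 1 it was 0.11 (adjusted p = 0.00388).

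Tissue isoforms of complex IV were read as CPM per kilobase of mRNA, since levels of different genes can only be compared per length. The common isoforms COX4I1, COX6A1, COX7A2 and COX8A were at 575, 87.6, 302 and 37.2 in siNC. Their partners COX4I2, which is known from lung, COX6A2 and COX7A1, which are known from heart and skeletal muscle, and COX8C had 1, 0, 3 and 1 counts in all 6 libraries together. COX6B2 and COX7B2, known from testis, were measurable but low, at 1.01 against 70.2 for COX6B1 and at 2.88 against 59.3 for COX7B. NDUFA4L2, known as a gene induced by hypoxia, had 11 counts in all. The order of the isoforms was the same in all 6 libraries, and COX6B2 and COX7B2 did not pass the test (adjusted p = 0.966 and 0.563). Only the principal annotated mRNAs were used where a gene has them. Among the mRNAs used, those of 18 members differ more than 2-fold in length, and the median length was taken. Differences to other annotated transcripts are not counted in this. A level per length, and any ranking of members by it, is thus approximate.

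In complex V 5 of 18 tested members fell (27.8%) and 2 rose (11.1%), beside 20.5% and 21.3% of all genes. ATP5F1E belongs to the F1 head, where ATP is made, and so does the catalytic beta subunit ATP5F1B. ATP5F1B was at 317, 314 and 314 CPM in siNC and 265, 282 and 280 CPM in siTRIM28, a log2 fold change of -0.19 with a standard error of 0.0397 (adjusted p = 0.00222). The fall was small, yet every siTRIM28 library lay below every siNC library. The alpha subunit ATP5F1A had a log2 fold change of 0.01 and overlapping groups, and ATP5IF1, the inhibitor of ATP hydrolysis and the member of the complex with the highest level per length, one of 0.08 (adjusted p = 0.145).

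The membrane ring of subunit c is supplied by ATP5MC1, ATP5MC2 and ATP5MC3, which encode the same mature protein. All 3 passed the test, 2 of them lower and 1 higher. ATP5MC1 was at 17.5, 19.7 and 18.1 CPM in siNC and 15.0, 13.4 and 13.2 CPM in siTRIM28 (log2 fold change -0.41, adjusted p = 0.00154). ATP5MC2, singled out after its values were seen, had a log2 fold change of -0.21 (adjusted p = 0.0173, lost without siNC replicate 1 or siTRIM28 replicate 3). ATP5MC3 was at 22.5, 23.8 and 21.7 CPM in siNC and 31.5, 28.9 and 29.8 CPM in siTRIM28, a log2 fold change of 0.41 with a standard error of 0.0672 (adjusted p = 4.89e-04). It was the member with a rise that kept its call under all 17 alternatives. Summed over the 3 genes the level was 99.9 ± 2.01 CPM in siNC and 94.7 ± 3.14 CPM in siTRIM28, and the sums of the siTRIM28 libraries, 91.2 to 97.2 CPM, lay just below those of siNC, 97.9 to 102 CPM. ATP5MG, a small membrane subunit, was the other riser, at 87.8 ± 0.451 CPM in siNC and 99.2 ± 1.79 CPM in siTRIM28 (log2 fold change 0.18, adjusted p = 0.00758). It did not pass in DESeq2, and a row of the same strand overlaps it with more counts.

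**Figure D3:**
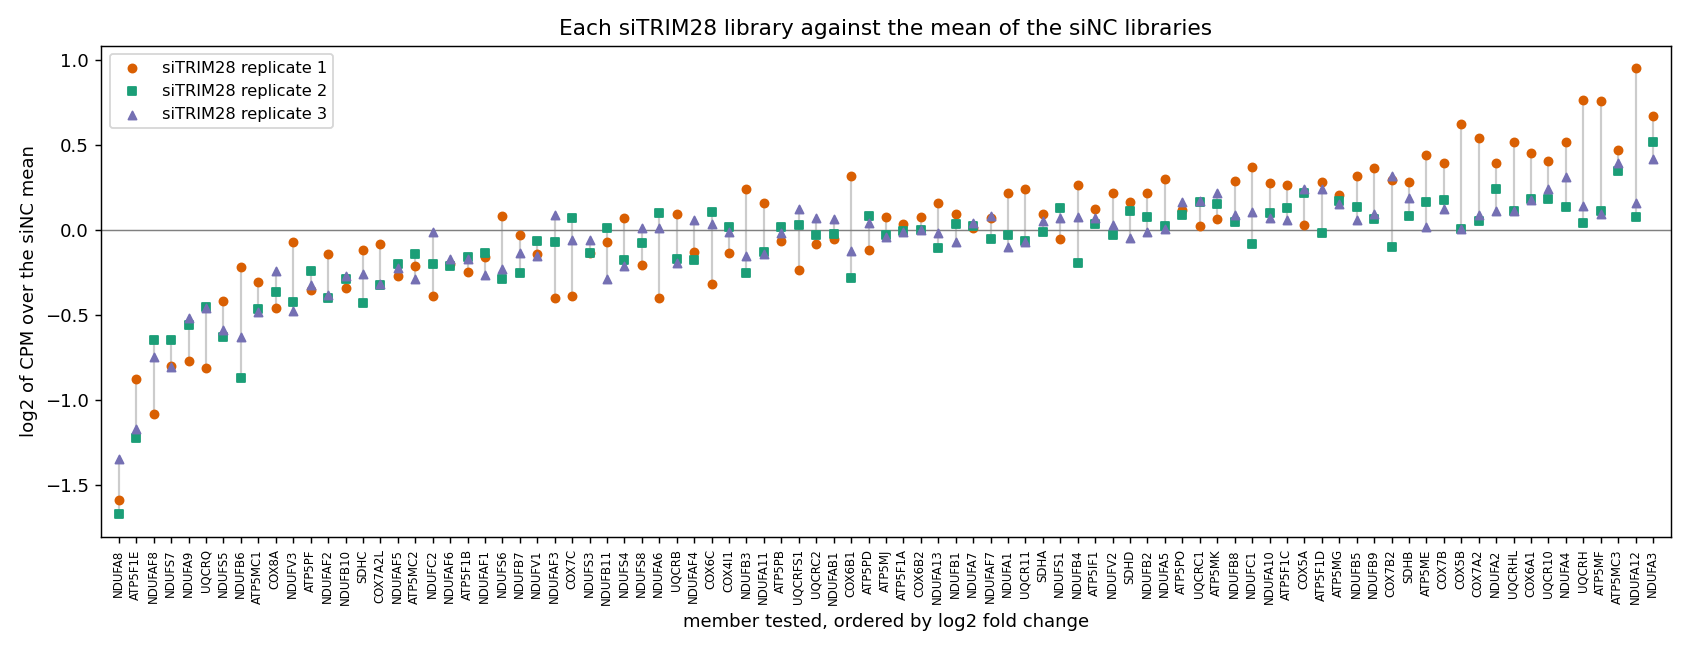
For the members tested and reported by name, ordered from left to right by log2 fold change, the log2 of the CPM in each siTRIM28 library over the mean of the siNC libraries is shown (vertical axis). Orange circles, green squares and purple triangles are siTRIM28 replicates 1, 2 and 3. At the left end all 3 libraries lie below 0, whereas for COX5B, COX7A2, UQCRH, ATP5MF and NDUFA12 at the right the circle of replicate 1 lies far above the other 2.

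How far siTRIM28 replicate 1 shaped the counts is seen by leaving it out. All 19 members that fell were then still lower, and NDUFS6, NDUFB7, NDUFS4, NDUFB3, SDHC, UQCRB and COX6B1, named for this change only, were lower as well, 26 in all (28.9%, against 23.1% of all genes in the same fit). Of the 9 that rose 7 kept the call, and UQCRC1, COX5A and ATP5MK joined them, 10 in all (11.1%, against 21.8% of all genes). NDUFA12, named because replicate 1 stood farthest above the others there, was at 147 CPM in replicate 1 and 80.2 and 85.0 CPM in the other siTRIM28 libraries, and did not pass with all libraries or without replicate 1 (adjusted p = 0.0635 and 0.127), but did without replicate 2 or 3. The summed level of all 96 members was 8580 to 8840 CPM in siNC, 9070 CPM in siTRIM28 replicate 1 and 8270 to 8281 CPM in replicates 2 and 3, so the libraries of siTRIM28 lay on either side of siNC. In RNA from whole cultures, fewer cells of a kind and less RNA per cell cannot be told apart.

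Genes outside the name rule that build or feed the same complexes are given by counts, with examples chosen after their values were seen. Of 11 complex I assembly factors with other names 6 fell and 1 rose. NUBPL, which inserts iron-sulfur clusters, had a log2 fold change of -1.42 (adjusted p = 5.00e-06), nearly that of NDUFA8, and DMAC2 one of -1.29 (adjusted p = 5.58e-07). Of 26 complex IV assembly factors 11 fell, among them PET117 (-0.78), and 2 rose, COX20 (0.61) and CMC1 (0.25). Of 6 complex III assembly factors TTC19 (-0.89) and UQCC2 (-0.56) fell and UQCC1 (0.62) rose. The 4 assembly factors of complex II included 1 that rose, SDHAF2, and the 4 of complex V had log2 fold changes of -0.21 to -0.09 (adjusted p from 0.0733 to 0.507). The electron carrier cytochrome c (CYCS) and cytochrome c1 (CYC1) had log2 fold changes of -0.04 and -0.01 (adjusted p = 0.426 and 0.923). The shares of these lists stand beside 20.5% lower and 21.3% higher over all genes.

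The 13 subunits encoded by mitochondrial DNA were mostly higher. In edgeR 12 of them were higher in siTRIM28, with a median log2 fold change of 0.37, beside 21.3% of all genes higher, and the groups did not overlap for 12, beside 52.0% of all genes. MT-ND4, a proton-pumping subunit of complex I, had the largest rise, 0.46 (standard error 0.0377, adjusted p = 2.11e-06). MT-CO1, the catalytic subunit of complex IV, did not pass (0.15, adjusted p = 0.146) and was at 5235 CPM in siTRIM28 replicate 1, below all siNC libraries. Their summed level was 41529 to 42150 CPM in siNC and 50120 to 53854 CPM in siTRIM28. Poly(A) selection takes mitochondrial transcripts by their short tails, and the difference between the nuclear and mitochondrial sets was described and not tested.

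Of 12 regulators of respiratory gene transcription 11 were tested, with 4 lower and 2 higher, beside 20.5% and 21.3% of all genes. The mitochondrial transcription factor TFAM fell by 0.32 on the log2 scale (adjusted p = 0.00109), GABPA, the ETS factor known as NRF2, by 0.54 (adjusted p = 2.57e-04), and the co-activator PPRC1 by 0.38 (adjusted p = 4.33e-04). TFB2M, a mitochondrial transcription factor, fell by 0.50 (adjusted p = 0.0166). The co-activator PPARGC1B rose by 0.44 (adjusted p = 0.00780) and TFB1M, a mitochondrial rRNA methyltransferase, by 0.22 (adjusted p = 0.0179). NRF1 (-0.05) and YY1 (-0.00) did not pass. GABPA lies on the opposite strand across from the member ATP5PF, whose log2 fold change was -0.31 (adjusted p = 7.26e-04) and which is named for this overlap.

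Promoters of respiratory chain genes are known for sites of NRF1, ETS factors and YY1. RefSeq promoters (GRCh38.p14, 250 bases before to 50 after the start) were matched to 77 members by symbol, 75 of them tested, and were searched on both strands for GCGCANGCG (NRF1), CCGGAAG (ETS) and AANATGGC (YY1). The YY1 letters were in the promoters of 37.3% of the tested members and 12.2% of all 11033 tested genes with a promoter. For NRF1 the shares were 32.0% and 17.03%, and for ETS 30.7% and 22.3%. Of the 17 members that fell and had a matched promoter, 35.3% held NRF1, 23.5% ETS and 35.3% YY1. Among the 7 that rose with a promoter, 3 held NRF1, 3 ETS and 5 YY1. These matches are descriptions of the letters and not of binding. Of the 4 members with large falls and a match, the promoters of the 3 with a single listed start are shown, with the matches in capitals as they read on the gene's strand (a match on the other strand appears as its complement), and those of NDUFA8 overlap one another. The promoter of ATP5F1E held none of the 3 motifs.
NDUFA8, chr9:122159730-122160029, minus strand: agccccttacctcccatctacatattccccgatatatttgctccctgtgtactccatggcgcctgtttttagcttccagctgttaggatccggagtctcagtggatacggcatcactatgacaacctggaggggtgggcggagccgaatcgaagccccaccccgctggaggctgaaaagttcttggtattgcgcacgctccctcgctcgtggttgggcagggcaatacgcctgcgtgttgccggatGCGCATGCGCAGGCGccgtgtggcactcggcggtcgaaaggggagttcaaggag
NDUFS7, chr19:1383657-1383956, plus strand: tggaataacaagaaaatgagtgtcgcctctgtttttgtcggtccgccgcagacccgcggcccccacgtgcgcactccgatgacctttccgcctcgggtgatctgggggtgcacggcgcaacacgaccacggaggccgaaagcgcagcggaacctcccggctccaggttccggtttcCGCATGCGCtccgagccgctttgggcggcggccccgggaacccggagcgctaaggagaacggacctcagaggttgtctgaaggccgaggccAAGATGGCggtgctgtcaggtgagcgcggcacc
NDUFA9, chr12:4648864-4649163, plus strand: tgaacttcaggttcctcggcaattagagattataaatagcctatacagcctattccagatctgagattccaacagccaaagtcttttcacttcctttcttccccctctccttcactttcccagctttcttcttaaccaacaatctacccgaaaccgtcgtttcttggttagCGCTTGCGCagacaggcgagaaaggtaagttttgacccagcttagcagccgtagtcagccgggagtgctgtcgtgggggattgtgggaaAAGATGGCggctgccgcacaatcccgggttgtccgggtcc

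NDUFA8 held 3 NRF1 matches within 1 run of letters, and NDUFS7 and NDUFA9 each held 1 match of NRF1 upstream and 1 of YY1 close to the start. NDUFAF8 has 3 listed promoters, 2 of which, a few bases apart, hold an ETS and a YY1 match. So the 5 large falls came from promoters with and without these motifs.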

How the data were processed

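Poly(A) RNA of 3 siNC and 3 siTRIM28 cultures of T24 cells had been sequenced. The deposited table holds unnormalized read counts for each gene, made by the authors. The submitters' processing notes list fastp 0.23.1, STAR 2.7.6a, featureCounts and GRCh38. The annotation release, the strand setting and the treatment of duplicate reads are not given in the sources used here. The length column of the count table was not used, since it exceeds the genomic span in 565 rows. A second deposited table, RPKM values of genes the authors selected, was left out.

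The main test was edgeR 4.0.16 (glmQLFit, glmQLFTest, TMM factors, R 4.3.3) on the 18474 genes that reached 10 counts in 3 or more of the 6 libraries, with Benjamini-Hochberg adjustment and a threshold of 0.05. Standard errors are the log2 fold change over the square root of F. Levels per length use the median length of the principal mRNAs in GENCODE v29. Members were named by fixed rules: those past 0.58, the 2 largest falls and rises called in each complex, core subunits, isoform pairs and the highest level per length. The values of 1 core subunit are not reported here. On counts simulated for siTRIM28 against siNC over 18474 genes, 100 genes were changed by 0.8 and 100 by 0.3. Recovered were 73 of those changed by 0.8 (69 of 69 with a mean of at least 50 counts) and 13 of the others, with 6 false calls. Far fewer genes changed there than were called in the data (20.5% lower and 21.3% higher), which alters the adjusted p. The recovered shares thus do not measure how often changes were missed in the data. Alternatives used DESeq2 1.42.0, limma 3.58.1 and other scalings, filters and libraries. Python 3.11.15 was used for tables and plots, with pandas 2.3.3, scipy 1.17.1 and matplotlib 3.10.9. The members, lists and tests were chosen with earlier results of these data known. P-values measure the spread between these cultures of 1 line.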

Additional observations from a re-analysis of the deposited data

How the results depend on the processing

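Of the 19 members that fell, 13 kept their call under all 17 alternatives run for each, and of the 9 that rose 1 did; no called member changed sign. The number of members that rose was 22 with upper-quartile scaling, 14 with total counts alone, 5 in DESeq2, 17 with no filter beyond 1 count, 16 with the replicate block, 2 at an adjusted p under 0.01, 4 among members with no overlapping row (chosen after seeing the data) and 4 to 16 with 1 library left out. In DESeq2 this was 5.56% of members, against 15.6% of all genes, and with the replicate block 17.8% against 21.8%. With no filter it was 17.9% of 95 members against 8.87% of 46060 genes. The number that fell was 14 to 26 and the median log2 fold change -0.02 to 0.04 over all alternatives. TRIM28 kept its call throughout.

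Log2 fold changes that changed sign were those of genes without a call. With upper-quartile scaling COX6B1 was at 0.0309 and UQCRFS1 at 0.0134. COX6B1 was at 0.015 with total counts alone and 0.0845 with close pairs of libraries summed, and ATP5F1A at -0.00394 with no filter. Without siNC replicate 3 and siTRIM28 replicate 1, left out together after seeing the data, the values were -0.0148 for ATP5F1A, -0.0635 for COX5B, -0.204 for COX6B2, 0.106 for COX6C, -0.0506 for NDUFV2, -0.0531 for SDHA, -0.0196 for SDHD and 0.122 for UQCRFS1. With 1 library left out they ranged from -0.0095 to 0.0236 for ATP5F1A, from -0.0792 to 0.00627 for COX4I1, from -0.201 to 0.107 for COX6B1, from -0.177 to 0.427 for COX6B2, from -0.138 to 0.0739 for COX6C, from -0.0292 to 0.0909 for SDHA and from -0.105 to 0.0799 for UQCRFS1. The cause was not tested. The labels number the replicates, which does not settle whether same-numbered cultures were paired. Correlations of same-numbered deviations were 0.0658, -0.0242 and 0.0506, beside -0.0736 to 0.0493 for libraries with different numbers. With the replicate block 7913 genes were called against 7721.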
